A study of Mus musculus with 16 samples.

Results

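The 10 genes described here make, break down, carry or sense retinoic acid: Rbp4, Stra6, Aldh1a1, Aldh1a2, Aldh1a3, Crabp1, Crabp2, Rarb, Cyp26a1 and Cyp26b1. They were taken by name from the 25719 genes listed in each library, and were chosen by role and on the opposite difference of Cyp26b1 and Cyp26a1 between the genotypes, which was already known. Of the 10, 9 passed the filter on low counts and stood among the 14803 genes tested, and Aldh1a2 did not. Because the contrast between genotypes was used to choose them, their differences between genotypes are given below as levels and fold changes, with no p-value. Where a fold change of 1 of the 10 is said to pass the threshold of the fit or not, this describes that fit and is no independent test.

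The RNA came from mouse tail tendon fascicles, the thin collagen strands that run through the tail, and every cell type of the strand was included. Of the 16 libraries, 8 were wild type (WT 1 to WT 8) and 8 were ScxCre;Vhlf/f (KO 1 to KO 8), called knockout here. In the knockout the tendon gene Scx drives Cre recombinase, which removes floxed Vhl sequence in the Scx lineage, so other cells keep the gene. The VHL protein marks hydroxylated HIF subunits for destruction, and the title of the series places the comparison in a study of HIF1α in overloaded tendon. The labels give no age, sex, treatment or litter, and they do not say whether each library is a separate mouse, so the errors measure the spread between libraries.

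Retinoic acid is made from retinol in a pair of oxidation steps. Retinol travels in blood on RBP4, can enter cells through STRA6, is oxidised to retinal by retinol dehydrogenases, and is then oxidised to retinoic acid by the ALDH1A enzymes. Inside the cell CRABP1 and CRABP2 carry retinoic acid, RAR and RXR receptors read it in the nucleus, and CYP26 enzymes oxidise it to products that are cleared. Cyp26a1 and Rarb are textbook retinoic acid response genes, with a receptor site beside their start.

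That site is shown first, as a description of the sequence beside Cyp26a1 and Rarb. The lines below give RefSeq promoter sequence (build GRCm38.p6), 5′ to 3′ on the strand of the gene. Cyp26a1 is given from 250 to 11 bases before its start (chr19:37697558-37697797, plus strand) and Rarb for the 250 bases before its start (chr14:16575477-16575726, minus strand). Capitals mark the 2 receptor hexamers of a direct repeat with a spacer of 5 bases.

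Cyp26a1: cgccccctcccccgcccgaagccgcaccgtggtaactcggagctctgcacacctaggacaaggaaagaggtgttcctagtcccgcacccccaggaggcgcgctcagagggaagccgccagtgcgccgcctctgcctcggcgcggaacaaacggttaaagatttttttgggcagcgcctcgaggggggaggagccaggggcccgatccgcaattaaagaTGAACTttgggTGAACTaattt

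Rarb: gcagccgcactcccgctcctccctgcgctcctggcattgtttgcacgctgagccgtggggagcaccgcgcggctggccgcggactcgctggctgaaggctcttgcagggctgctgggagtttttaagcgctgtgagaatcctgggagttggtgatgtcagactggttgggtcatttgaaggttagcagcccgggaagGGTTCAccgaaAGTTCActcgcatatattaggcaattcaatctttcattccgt

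The search used 4 receptor hexamers: the core AGGTCA, then AGTTCA as found in both genes, then GGTTCA as in the first Rarb hexamer, and the further variant GGGTCA. It covered both strands, in windows from 250 bases before to 50 bases after each start. A direct repeat of these hexamers spaced by 5 was found in 32 of 32851 windows (0.0974%). Windows were held for 8 of the 10 genes, 13 windows in all, and only those of Cyp26a1 and Rarb among them had the repeat. As AGTTCA and GGTTCA are the hexamers of these genes, finding the repeat there was set in advance. The share of all windows is background and no test. In Cyp26a1 it lay 32 to 16 bases before the start (chr19:37697776-37697792) and read on the opposite strand, which is why the capitals above show TGAACT, the reverse complement of AGTTCA. In Rarb it lay 53 to 37 bases before the start (chr14:16575513-16575529) on the strand of the gene. No direct repeat spaced by 1 or by 2 was found in the 13 windows, and these spacings occur in 0.222% and 0.268% of all windows. A single hexamer is common, in 43.7% of all windows.

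The 31 genes with a repeat spaced by 5 in a window were mostly outside the data: 27 were not tested or not listed. The 4 tested were Cyp26a1 and Rarb, both lower in the knockout, and Blvrb (log2 fold change −0.26, SE 0.108) and Tnfsf13b (0.23, SE 0.145), neither past the threshold, an adjusted p of 0.05 in the fit across all genes. The last 2 genes fall outside the naming rule and were chosen after their values were seen.

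HIF binds a core ACGTG or GCGTG. This core was in 43.8% of all windows, and no match overlapped a receptor hexamer in the 13 windows. The windows of Cyp26a1 and Rarb each had 1 match, those of Crabp1 and Aldh1a2 each had 2, 1 of the Rbp4 windows had 4, and the single Cyp26b1 window (chr6:84593761-84594060) had none. These are matches of letters, not measured binding. Aldh1a3 and Crabp2 were not searched.

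Wild type libraries held 10792900 to 16379401 counts and knockout libraries 10488355 to 18753254. Levels are CPM, each count divided by the size of its library after TMM scaling, which centres the bulk of the genes between libraries, and log2 fold changes are knockout over wild type. A count of 3 in a library was worth 0.145 to 0.336 CPM. Vhl was 20.4 ± 3.69 CPM (SD, n = 8) in wild type, from 14.1 to 25.8, and 9.34 ± 1.24 CPM (SD, n = 8) in the knockout, from 7.50 to 10.9, without overlap (log2 fold change −1.13, SE 0.113). Counts cover the whole gene, so transcripts that lack the floxed part may still be counted. The tendon markers Scx, Mkx, Tnmd, Thbs4, Fmod, Col1a1, Col1a2 and Dcn were all measured in both genotypes, and 6 of the 8 were lower in the knockout at an edgeR quasi-likelihood adjusted p under 0.05. Endothelial markers were higher for 5 of 7 tested (summed 30.6 to 49.9 CPM in wild type, 37.5 to 463 in the knockout) and mural markers for 4 of 7, with 1 lower (353 to 473, then 327 to 1480). Of the 8 adipocyte markers 2 were tested, Fabp4 and Plin4, and only Fabp4 was past the threshold, as higher. The adipocyte score used below is the mean log2 CPM of these 2 genes. Among knockout libraries Fabp4 was lowest in KO 2 and highest in KO 7, as was the same mean over the tested endothelial markers. The adipocyte score therefore cannot tell these cell types apart. Skeletal muscle markers varied widely within both genotypes (16.9 to 3064 and 88.1 to 4853 CPM). Macrophage markers were higher for 3 of 8 (741 to 1083, then 803 to 1196) and Schwann cell markers for 2 of 6 (415 to 479, then 291 to 543). Of all tested genes, 25.6% passed as higher and 22.7% as lower, so these 2 counts are not read as a change in cell content. Erythroid markers were higher for 5 of 5 (15.1 to 50.7, then 77.6 to 561). Of 4 keratinocyte markers tested, Krt10, Dsp and Perp were lower and Sfn was higher (summed over the list 25.8 to 59.9, then 19.97 to 27.6). Of the others, Krt1 and Krt15 were at 0 and Krt5 and Krt14 at no more than 3 counts in any library. The part of these other cells in the results was not tested, except where a value is given. In a bulk sample fewer cells of a type and less RNA per cell cannot be told apart.

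The transcripts of Cyp26a1 and Cyp26b1 differed in opposite directions, which was part of the choice of these genes and is described here by level. Of the CYP26 transcripts, wild type fascicles carried mostly Cyp26a1, knockout fascicles almost entirely Cyp26b1. Which cells held each transcript was not tested. The third family member, Cyp26c1, which lies near Cyp26a1 on chromosome 19, was low in the knockout too.

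Cyp26a1 (ENSMUSG00000024987, chromosome 19) encodes the CYP26 enzyme best known for being induced by retinoic acid itself. In wild type it measured 10.2 CPM at the lowest (WT 3), 41.7 at the median and 88.6 at the highest (WT 8), and in the knockout 1.12 (KO 4), 1.83 and 2.86 (KO 5). Every knockout library lay below every wild type library, although the wild type libraries spanned an 8.68-fold range among themselves. On the log2 scale the difference was −4.56 (SE 0.401), a 24.3-fold ratio of the means of 43.4 ± 24.5 and 1.79 ± 0.541 CPM (SD, n = 8 each). Raw counts were 131 to 919 in wild type and 14 to 58 in the knockout, so the knockout level is low but above the floor.

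Cyp26b1 (ENSMUSG00000063415, chromosome 6), a CYP26 enzyme of the developing limb and skeleton, went the other way. It measured 16.7 CPM (WT 3), 20.6 and 24.5 (WT 4) as lowest, median and highest in wild type, and 127 (KO 4), 156 and 173 (KO 3) in the knockout. The groups lay far apart and each was narrow. Its log2 fold change was 2.87 (SE 0.0810), with means of 20.96 ± 2.52 and 153 ± 13.7 CPM (SD, n = 8 each), a 7.32-fold ratio. Its coefficient of variation in wild type was 12.0%, against 56.5% for Cyp26a1 in the same libraries.

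Cyp26c1, the remaining retinoic acid hydroxylase of the family and not one of the 10, ran from 2.73 to 5.79 CPM in wild type and from 0.169 to 0.934 CPM in the knockout. It fell without overlap between the groups (−2.81 on the log2 scale, SE 0.222). Cyp26c1 passed the filter on low counts only through its wild type level, so this difference is given with no p-value. Knockout counts were 2 to 15, with KO 8 under the floor of 3 counts, so the knockout level is poorly determined.

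Levels of different genes can be compared only per length, here as CPM per kilobase of exon. On that scale the 3 CYP26 genes summed to 28.3 ± 13.0 (SD, n = 8) in wild type and 29.9 ± 2.70 (SD, n = 8) in the knockout, with the knockout range of 24.6 to 33.5 inside the wild type range of 9.83 to 52.0. The makeup of the sum differed without overlap. Cyp26a1 made up 73.3% ± 10.7 (SD, n = 8) of it in wild type, from 52.4% to 85.9%, and 2.98% ± 0.752 (SD, n = 8) in the knockout. The share of Cyp26b1 was 16.7% ± 7.70 in wild type, at most 31.7%, and 95.8% ± 0.760 in the knockout, at least 94.2% (SD, n = 8 each). Cyp26c1 supplied 9.93% ± 3.13 and 1.18% ± 0.492 (SD, n = 8 each). A sum of transcripts is not a measure of enzyme activity. With the length of the longest transcript in place of all exons, the sums were 31.4 and 35.5, and the order of the shares was as before.

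**Figure D1:**
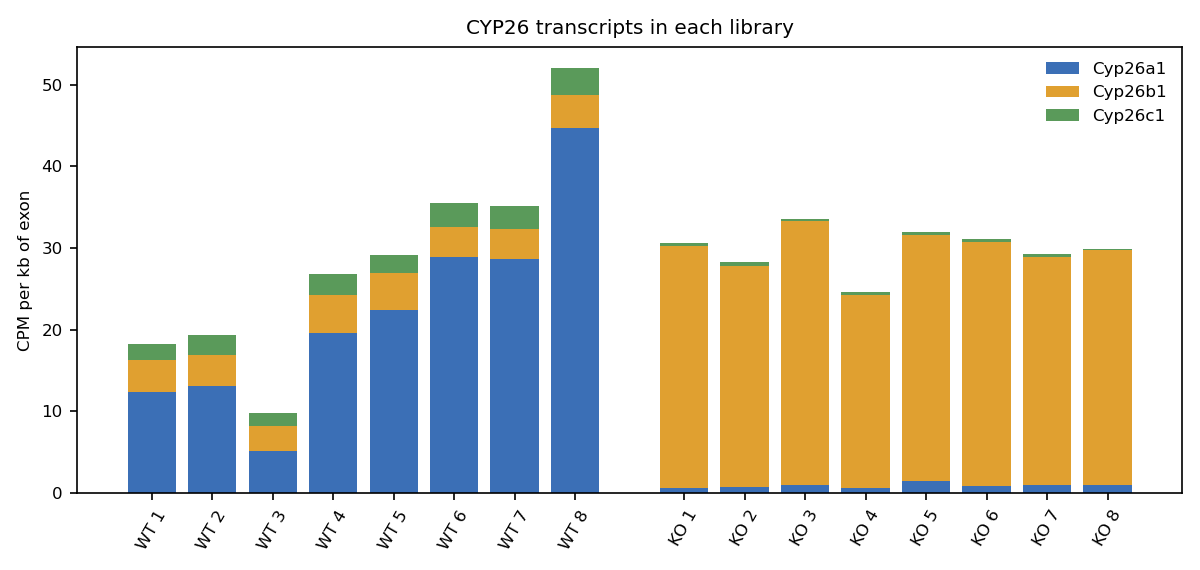
Stacked bars give the level per kilobase of exon (CPM per kb, axis from 0) of Cyp26a1 (blue), Cyp26b1 (orange) and Cyp26c1 (green) in each of the 8 wild type (WT) and 8 knockout (KO) libraries. Wild type bars are mostly blue and run from 9.83 to 52.0 in height, and knockout bars are almost wholly orange and run from 24.6 to 33.5.

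The bar plot of the CYP26 family shows that the spread of the wild type sum came from Cyp26a1. The orange segment was of nearly even height across the wild type libraries, while the blue one varied.

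The ALDH1A enzymes make retinoic acid from retinal, and their transcripts differed much less than those of the CYP26 genes. Aldh1a3 and Aldh1a1 supplied nearly all of the family's signal in both genotypes.

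Aldh1a1 (ENSMUSG00000053279, chromosome 19) measured 31.6 CPM (WT 3), 47.8 and 68.9 (WT 8) in wild type and 30.2 (KO 1), 34.6 and 44.7 (KO 2) in the knockout. The groups overlapped: 2 knockout libraries lay below the lowest wild type library, and 5 wild type libraries lay above the highest knockout library. This gave a log2 fold change of −0.56 (SE 0.136).

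Aldh1a3 (ENSMUSG00000015134, chromosome 7) measured 45.0 CPM (WT 2), 62.4 and 86.0 (WT 3) in wild type and 30.8 (KO 1), 46.8 and 57.2 (KO 8) in the knockout. The middle of the knockout range sat near the bottom of the wild type range, and the groups overlapped. Knockout over wild type was −0.42 on the log2 scale (SE 0.125). With the adipocyte score as a covariate it was −0.43 and did not pass the threshold.

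Aldh1a2 (ENSMUSG00000013584, chromosome 9), the main retinoic acid maker of the early embryo, was near the floor. It measured 0.397, 0.726 and 1.11 CPM as lowest, median and highest in wild type, and 0.296, 0.373 and 1.79 in the knockout, from 4 to 37 counts a library. The 3 highest knockout libraries were KO 6, KO 7 and KO 8. They are also the knockout libraries with the highest skeletal muscle score (mean log2 CPM of the markers), 7.91 to 8.60 against 2.77 to 5.43 in the other 5, and the highest endothelial and adipocyte scores. As the libraries form separate groups on that score, no pooled correlation is given.

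Per kilobase of exon, the ALDH1A sum was 24.1 ± 3.32 in wild type and 17.3 ± 2.14 in the knockout (CPM per kb, SD, n = 8 each). Aldh1a3 stood above Aldh1a1 on this scale, at 13.3 ± 2.72 and 10.5 ± 2.69 in wild type, a gap within their spread. The order depends on the length used: with the longest transcript Aldh1a1 was 21.9 and Aldh1a3 17.8 in wild type.

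Of the cytosolic carriers of retinoic acid, Crabp1 was lower and Crabp2 higher. Crabp1 (ENSMUSG00000032291, chromosome 9), a carrier linked to delivery of retinoic acid to its breakdown, measured 4.83 CPM (WT 3), 10.9 and 16.4 (WT 6) in wild type. In the knockout it measured 0.435 (KO 7), 0.927 and 1.70 CPM (KO 2), from 8 to 20 counts. All 8 knockout libraries lay below all 8 wild type libraries. Its log2 fold change was −3.44 (SE 0.304), with means of 10.5 ± 3.40 and 1.01 ± 0.542 CPM (SD, n = 8 each), a 10.4-fold ratio.

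Crabp2 (ENSMUSG00000004885, chromosome 3), a carrier that hands retinoic acid to nuclear receptors, measured 11.2, 15.2 and 18.8 CPM in wild type and 12.3 (KO 7), 21.8 and 38.7 (KO 5) in the knockout. In the knockout 6 libraries lay above the highest wild type library and the other 2 lay within the wild type range. The log2 fold change was 0.62 (SE 0.206). It was 0.39 with the macrophage score as a covariate and 0.52 without KO 5, KO 6, KO 8 and WT 8, and passed the threshold in neither. With the adipocyte score (0.87), with the muscle score (0.70) and without KO 6, KO 7 and KO 8 (0.80) it was larger and passed. KO 5, KO 6, KO 8 and WT 8 stand above the rest in Scx, at 477 to 1250 CPM against 54.5 to 140. They also stand above the rest in its neighbour Bop1, at 109 CPM in WT 8 and 458 to 918 in the knockout libraries, against at most 83.8 elsewhere. Scx is also 1 of the 8 tendon markers above. The cause was not tested.

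Rarb (ENSMUSG00000017491, chromosome 14) encodes the receptor RARβ. It measured 4.44 CPM (WT 3), 7.02 and 13.2 (WT 6) in wild type and 2.46 (KO 8), 3.33 and 5.41 (KO 6) in the knockout. In the knockout 7 libraries lay below the lowest wild type library, and KO 6 lay within the range of the wild type. The log2 fold change was −1.17 (SE 0.222). Exons of Rarb overlap those of Top2b on the other strand, and whether counting used strand is not given, so the Rarb count is uncertain. Top2b, a topoisomerase gene at 165 ± 11.8 CPM in wild type and 145 ± 6.81 in the knockout (SD, n = 8 each), differed by only −0.18 (SE 0.0553) on the log2 scale.

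The blood carrier and the membrane receptor for retinol were both near the floor. Rbp4 (ENSMUSG00000024990, chromosome 19) measured 0.674, 1.08 and 2.18 CPM in wild type and 0.642, 1.56 and 2.34 in the knockout, with full overlap of the groups. Its log2 fold change of 0.42 (SE 0.265) did not pass the threshold.

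Stra6 (ENSMUSG00000032327, chromosome 9) measured 0.557, 0.819 and 1.64 CPM in wild type and 1.02 (KO 2), 1.61 and 1.87 in the knockout, from 5 to 37 counts. The groups overlapped, with 3 knockout libraries above the highest wild type library. The log2 fold change of 0.64 (SE 0.227) no longer passed the threshold without WT 1 (0.56), without WT 4 (0.54), or without KO 6, KO 7 and KO 8 (0.53). It was 0.34 with the adipocyte score as a covariate and 0.51 with the muscle score, and passed in neither.

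**Figure D2:**
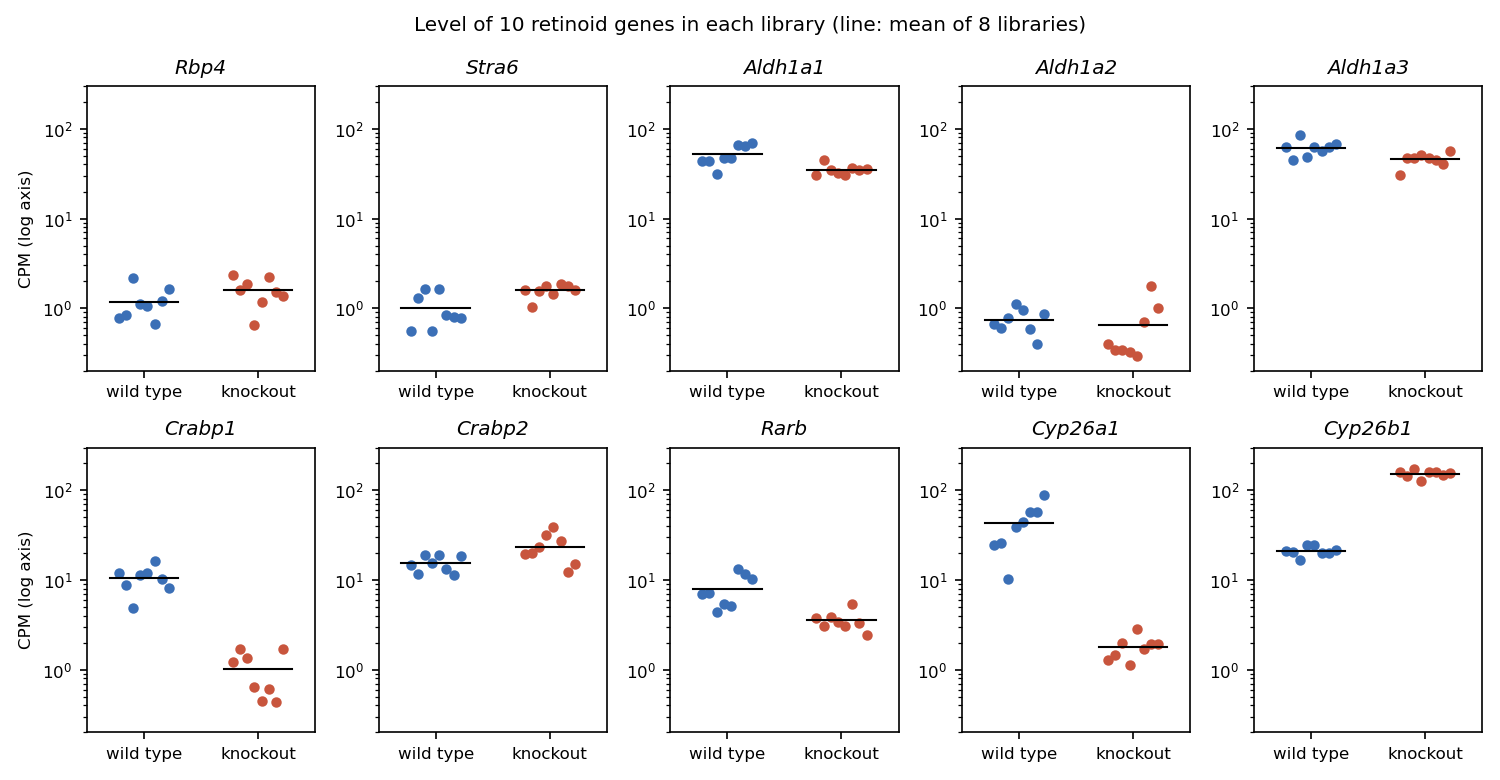
Each point is the level of 1 gene in 1 library (CPM, log axis), with wild type in blue, knockout in red and a line at the mean of the 8 libraries. Cyp26b1 lies higher in all knockout libraries, Cyp26a1 and Crabp1 lie lower in all of them, and the groups of the other 7 genes overlap.

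Across the 9 genes tested, 3 passed an adjusted p of 0.05 as higher (Cyp26b1, Crabp2, Stra6) and 5 as lower (Cyp26a1, Aldh1a1, Aldh1a3, Crabp1, Rarb). Of all tested genes 48.3% passed, 25.6% as higher and 22.7% as lower, and nothing is read from the members' count because the contrast chose them. Knockout and wild type were fully apart for 3 of the 10, 1 higher and 2 lower, against 19.4% of all tested genes, 10.8% higher and 8.63% lower. The median log2 fold change was −0.42 over the 9 and 0.02 over all tested genes. Scaling to total counts in place of TMM moved the median of all genes to 0.32 and gave 4 members higher and 3 lower. On that scale Rbp4 passed (0.70), and Aldh1a1 (−0.25) and Aldh1a3 (−0.13) did not.

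Ranked per kilobase of exon, the order of mean level in wild type was Cyp26a1, Aldh1a3, Crabp1, Crabp2, Aldh1a1, Cyp26b1, Rarb, Rbp4, Aldh1a2 and Stra6. In the knockout it was Cyp26b1, Crabp2, Aldh1a3, Aldh1a1, Crabp1, Rbp4, Cyp26a1, Rarb, Aldh1a2 and Stra6. Cyp26a1 went from rank 1 to rank 7 and Cyp26b1 from rank 6 to rank 1. The wild type neighbours from Aldh1a3 (13.3 CPM per kb) to Aldh1a1 (10.5) were closer together than their spread.

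Variation among libraries of 1 genotype was not used to choose the genes, and it can be tested. Correlations of log2 CPM were computed within each genotype for 90 pairs among these genes and Cyp26c1, a family added after the values were seen. A gene entered in a genotype only with a mean count of at least 10 there. Cyp26c1 thus entered in wild type alone and Aldh1a2 in the knockout alone. Of the 90, 10 had an unadjusted exact permutation p under 0.05, 3 passed after Benjamini-Hochberg adjustment by Pearson's r, and 1 by Spearman's rho.

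In wild type, Cyp26a1 and Aldh1a1 varied together (r = 0.96, two-sided exact permutation p = 9.92e-05, adjusted p = 0.00893; rho = 0.98, exact p = 3.97e-04, adjusted p = 0.0357; n = 8). WT 8 had the highest level of both and WT 3 the lowest of both. Without the 2 libraries farthest from the median r was 0.90, with any 1 library left out it was at least 0.92, and with total-count scaling it was 0.94. In the knockout, where Cyp26a1 had few counts, r was −0.16 and rho 0.05 (exact permutation p = 0.711 and p = 0.935, n = 8). The difference between the genotypes was not tested.

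Cyp26c1 followed the same libraries in wild type by Pearson's r alone. Its r was 0.93 with Cyp26a1 (exact permutation p = 0.00144, adjusted p = 0.0431) and 0.94 with Aldh1a1 (exact permutation p = 7.94e-04, adjusted p = 0.0357), both n = 8. Spearman's rho of 0.90 (exact permutation p = 0.00456) and 0.86 (p = 0.0107) did not pass adjustment (adjusted p = 0.205 and 0.321). Without the 2 farthest libraries r was 0.74 and 0.81. Rarb and Cyp26a1 had r = 0.72 (exact permutation p = 0.0415, adjusted p = 0.404) and rho = 0.71 (p = 0.0576, adjusted p = 0.518) in wild type, which did not pass.

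**Figure D3:**
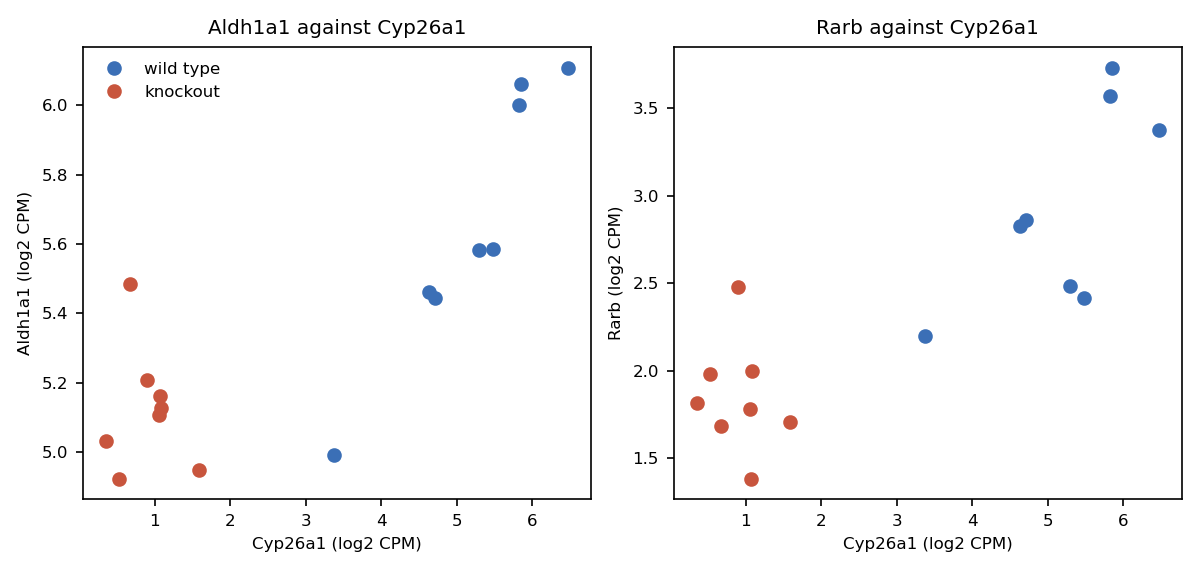
Each point is a library, with log2 CPM of Cyp26a1 on the horizontal axis and log2 CPM of Aldh1a1 (left) or Rarb (right) on the vertical axis, wild type in blue and knockout in red. The blue points of the left panel lie close to a line (r = 0.96), and those of the right panel spread more (r = 0.72).

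The scatter of Aldh1a1 and Rarb on Cyp26a1 also shows which libraries lie at the ends. WT 6, WT 7 and WT 8 were the 3 highest for Cyp26a1, Aldh1a1, Rarb and Cyp26c1. They were also the 3 wild type libraries with the highest macrophage score, 6.58 to 6.66 against 6.08 to 6.29 in the other 5. With that score as a covariate the log2 fold changes were −5.14 for Cyp26a1, −0.73 for Aldh1a1 and −1.45 for Rarb. The part of macrophages in the correlation itself was not tested.

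WT 3 had the lowest wild type level of 5 of the 10 genes (Cyp26a1, Cyp26b1, Aldh1a1, Crabp1 and Rarb) and the highest of 3 (Aldh1a3, Rbp4 and Stra6). It also had the lowest tenocyte score of the wild type libraries (11.7) and their highest TMM factor (1.07). Without WT 3 the log2 fold change was −4.72 for Cyp26a1, −3.55 for Crabp1, −1.26 for Rarb and 2.82 for Cyp26b1.

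Correlations of the genes with muscle, endothelial, adipocyte and keratinocyte scores were computed for 76 pairs within genotype, again with a mean count of at least 10. Of these, 7 had an unadjusted exact permutation p under 0.05, and the 1 that passed adjustment by Pearson's r was Aldh1a2 against the muscle score in the knockout, described above by its values. By Spearman's rho it did not pass (adjusted p = 0.170). Aldh1a2 met the cut on mean count in the knockout alone. Its counts there were 12 to 37 in KO 6, KO 7 and KO 8 and 4 to 6 in the rest. The libraries that lift Aldh1a2 over the cut are also those that make the correlation, so nothing is read from it.

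The genes most like Cyp26a1 were sought among 13415 genes by Pearson's r of genotype-centred log2 CPM over 16 libraries. They were Hcls1 (r = 0.88), Arl4c (0.85) and Cd300ld (0.84). Their log2 fold changes between genotypes were 0.43, 1.03 and 0.96, opposite in sign to that of Cyp26a1, since the measure removes the genotype means. Among those most like Cyp26b1 were Ppp2r5b (0.82) and Gm45716 (0.81).

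The rest of the retinoid pathway was covered by 72 further genes in 7 lists by role. Of these, 45 were tested, 10 rose and 18 fell (62.2% past the threshold, against 48.3% of all tested genes), and 16 of the 72 had no overlap between genotypes. The median log2 fold change was −0.06. With total-count scaling the split was 21 higher and 7 lower, while over all tested genes the higher calls went from 3792 of 7151 to 8270 of 9685. Without the filter on low counts the split was 15 higher and 18 lower, and over all genes 4582 of 8212 calls were higher. All adjusted p-values below are from edgeR's quasi-likelihood test with Benjamini-Hochberg adjustment over all tested genes.

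In the conversion of retinol and retinal, 4 of 11 tested genes rose and 4 fell, with a median of −0.06. Adh1 and Adh7, alcohol dehydrogenases that can oxidise retinol, fell from 35.4 ± 5.74 to 9.58 ± 3.02 CPM (−1.87, SE 0.175, adjusted p = 6.68e-08) and from 13.4 ± 3.36 to 3.28 ± 1.19 CPM (−2.02, SE 0.219, adjusted p = 3.29e-07). Dhrs9 rose from 7.77 ± 2.58 to 25.2 ± 7.38 CPM (1.69, SE 0.202, adjusted p = 1.69e-06). Dhrs3, which reduces retinal back to retinol, rose from 39.2 ± 4.67 to 64.6 ± 7.31 CPM (0.72, SE 0.0816, adjusted p = 4.49e-07). None of these 4 genes overlapped between the groups (SD, n = 8 each). Rdh10, the main retinol dehydrogenase of the embryo, did not pass, at 18.7 ± 1.00 and 19.4 ± 1.81 CPM (0.06, SE 0.0652, adjusted p = 0.495), but with total-count scaling it was higher (0.36, adjusted p = 4.84e-04).

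Among other genes of retinoic acid formation and breakdown, 1 of 3 tested rose and 1 fell, with a median of 0.17. Cyp1b1, a cytochrome P450 that can oxidise retinol, rose without overlap from 1.32 ± 0.391 to 6.54 ± 1.94 CPM (SD, n = 8 each; 2.32, SE 0.214, adjusted p = 3.00e-08). Cyp26c1, described above, was the gene that fell. Aldh1a7, a close relative of Aldh1a1, was at 0 counts in all wild type libraries and at a mean of 0.0534 CPM in the knockout.

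For ester storage and carotenoid cleavage, 1 of 5 tested genes rose and 2 fell, with a median of −0.05. Scarb1, a scavenger receptor that takes up lipids and carotenoids, rose without overlap from 11.3 ± 1.06 to 37.1 ± 4.09 CPM (SD, n = 8 each; 1.72, SE 0.0791, adjusted p = 1.36e-12). Pnpla2, a lipase (−0.42, adjusted p = 0.0171, and −0.76 with the adipocyte score as a covariate), and Dgat1, an acyltransferase (−0.21, adjusted p = 0.0192), fell by small amounts. Neither passed with total-count scaling, where Dgat1 was 0.0915, nor without KO 5, KO 6, KO 8 and WT 8.

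Of the other carriers 2 of 8 could be tested, and 1 rose. Fabp5, which can carry retinoic acid to PPARδ, rose from 1.17 ± 0.252 to 5.62 ± 3.74 CPM (SD, n = 8 each; 2.26, SE 0.377, adjusted p = 7.40e-05). Its log2 fold change was 1.11 with the adipocyte score as a covariate (adjusted p = 0.0178) and 1.52 without KO 6, KO 7 and KO 8 (adjusted p = 2.82e-04).

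Of the other receptors, 2 of 5 tested rose and 2 fell, with a median of −0.06. Rara, which encodes RARα, rose without overlap from 17.2 ± 2.39 to 41.7 ± 6.62 CPM (1.28, SE 0.102, adjusted p = 3.93e-09). Rarg, which encodes RARγ, fell without overlap from 159 ± 18.4 to 91.8 ± 13.4 CPM (−0.79, SE 0.0906, adjusted p = 5.73e-07). Rxra, which encodes the partner RXRα, fell without overlap from 98.4 ± 9.99 to 71.4 ± 6.28 CPM (−0.46, SE 0.0707, adjusted p = 2.10e-05; SD, n = 8 throughout). Ppard, another partner of RXR, rose (0.46, SE 0.110, adjusted p = 0.00168). With total-count scaling these 3 were −0.48 for Rarg, −0.15 for Rxra and 0.77 for Ppard. The 3 RAR genes thus moved in different directions, Rara up, Rarg and Rarb down, and each kept its direction with total-count scaling.

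Of 10 receptor coregulators, all tested, 6 fell and 4 did not pass, with a median of −0.21. The coactivators Ncoa1 (−0.41, adjusted p = 8.62e-06), Ncoa2 (−0.36, adjusted p = 1.82e-04) and Ncoa3 (−0.45, adjusted p = 1.12e-04) fell. With total-count scaling these were −0.10, −0.056 and −0.15, and the 3 did not pass. Exons of Ncoa3 overlap Sulf2 on the other strand, so its count is uncertain.

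Of 9 tested genes known to be induced by retinoic acid, 1 rose and 3 fell, with a median of −0.18. Meis2, a homeobox gene of the proximal limb, rose without overlap from 8.67 ± 1.13 to 25.9 ± 4.16 CPM (SD, n = 8 each; 1.58, SE 0.105, adjusted p = 2.72e-10). Tgm2, a transglutaminase, fell from 50.9 ± 8.96 to 24.8 ± 9.37 CPM (SD, n = 8 each; −1.03, SE 0.202, adjusted p = 4.18e-04), although its exons overlap Rprd1b on the other strand. Ret, a receptor tyrosine kinase, fell without overlap from 27.6 ± 4.74 to 17.2 ± 2.92 CPM (SD, n = 8 each; −0.69, SE 0.115, adjusted p = 5.86e-05). With total-count scaling Ret was −0.40. Meis1, which did not pass, was 43.3 ± 4.46 and 43.8 ± 6.53 CPM.

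**Figure D4:**
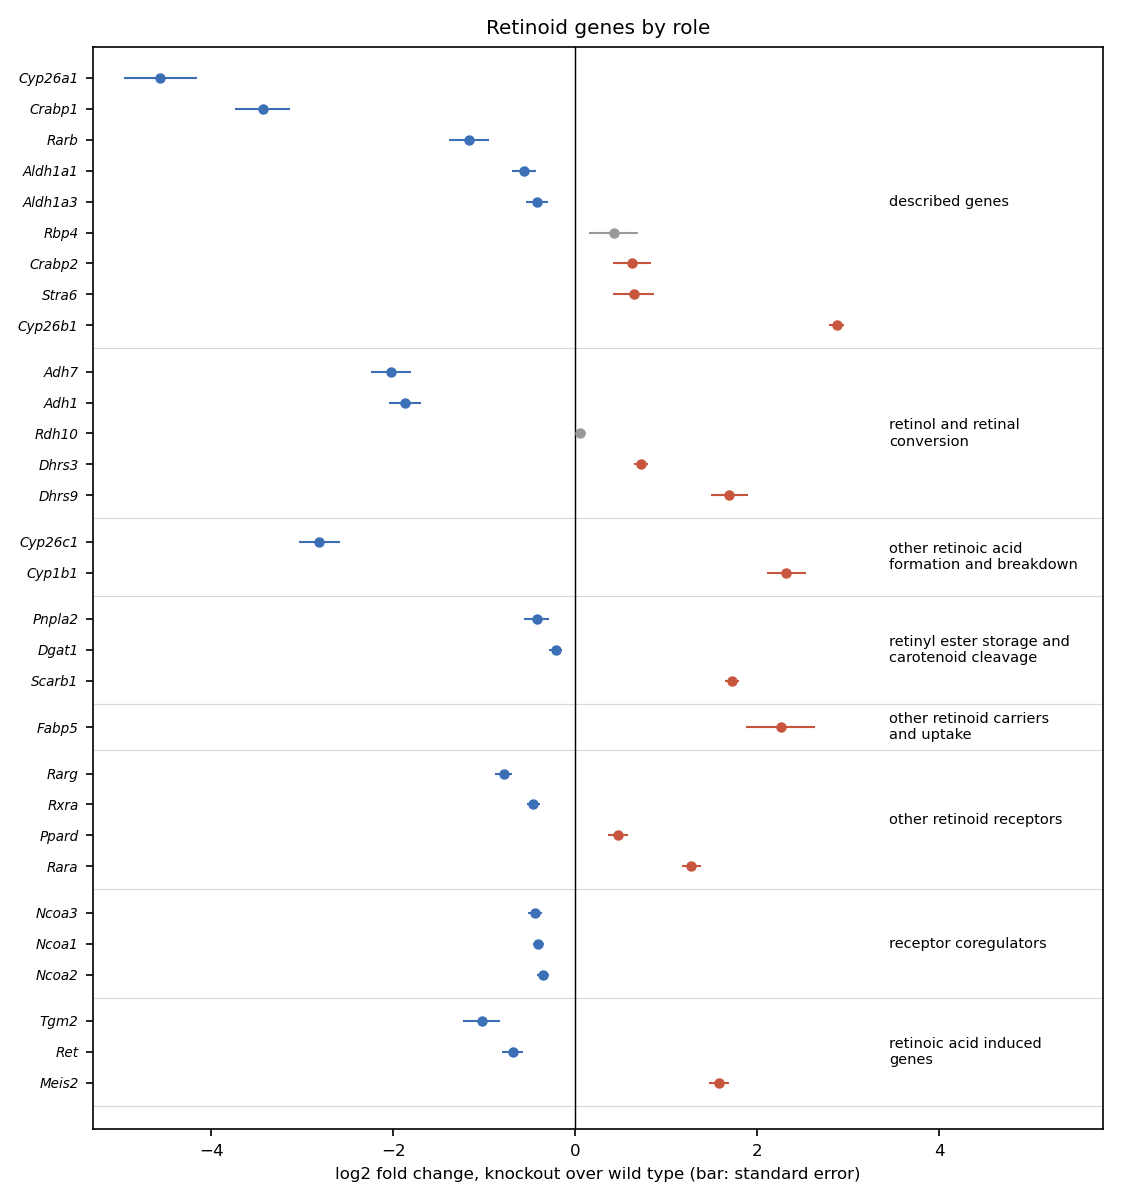
Points give the log2 fold change, knockout over wild type, of the 9 tested genes described first and of the other retinoid genes described by role, with bars of 1 standard error. Red marks genes past the threshold as higher, blue as lower and grey not past. Values run from −4.56 for Cyp26a1 to 2.87 for Cyp26b1, and the 3 coregulators shown lie between −0.45 and −0.36.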

How the data were processed

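RNA-seq of 16 mouse tail tendon fascicle samples was analysed from the deposited tables, 1 per library, which hold raw counts per Ensembl gene, whole numbers with no normalization by the authors. The submitters' processing notes name kallisto, featureCounts and build GRCm39. Their versions and roles, the annotation and the use of strand are not given in the sources used here. Groups came from the genotype label. Symbols were matched for 25614 of 25719 identifiers. The 10 genes, the pathway lists and the marker lists were chosen with earlier results of these data known.

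Counts were filtered with filterByExpr, scaled by TMM and fitted across all genes with edgeR 4.0.16 (R 4.3.3) by the robust quasi-likelihood F test on genotype, with Benjamini-Hochberg adjustment and a threshold of 0.05. Sums of counts per library set the depth, and every statement of counting error covers reads, not molecules. Log2 CPM used a prior count of 2. Lengths per kilobase are exon unions of GENCODE M21, which is GRCm38, so lengths in the authors' annotation may differ. Promoter windows are RefSeq's on GRCm38.p6. The alternatives used DESeq2 1.42.0, limma 3.58.1, other scalings and filters, covariates, and left-out libraries. Of the fits, only the main edgeR fit was run on simulated counts. Those had far fewer changed genes than were called here, balanced in direction, so that run cannot judge the choice of scaling.

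Named pathway genes were Rdh10, Dhrs3, Cyp26c1, Aldh1a7, Rara and Rarg, and in each list the 4 past the threshold with the largest absolute log2 fold change. Some genes that this rule and the rule for the most similar genes name are not reported here, and stay in the counts of their lists. Blvrb, Tnfsf13b, Meis1, Stra6l, Rarres1 and Bop1 were named after their values were seen. Correlations within genotype used exact permutation over the 40320 orderings of 8 libraries. No 2 libraries agreed within sampling noise: the lowest chi-square per degree of freedom over 14096 genes was 6.56 within wild type and 8.67 within the knockout. The labels give no date or lane, so no batch was formed.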

Additional observations from a re-analysis of the deposited data

Results flagged for a closer look

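The 8 libraries of each genotype were checked for a highest or lowest value far from the rest, for the genes named in the report. Of 64 such sets 3 held one, and chance gives about 1 in 20, or 3.2 here. Stra6 in KO 2 was 1.02 CPM, while the next lowest knockout library, KO 5, was 1.43 CPM. Adh7 in KO 1 was 1.05 CPM, and the next lowest, KO 7, was 2.51 CPM. Tgm2 in WT 3 was 31.8 CPM, and the next lowest wild type library, WT 7, was 44.8 CPM. WT 3 is the library with the lowest wild type Cyp26a1.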

How the results depend on the processing

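Of 840 values of log2 fold change for 30 genes under the alternatives, 818 kept their direction and their side of the threshold, 18 lost the threshold, 2 gained it and 2 changed sign. Cyp26a1 stayed between −5.14 and −4.25, Cyp26b1 between 2.82 and 3.18 and Crabp1 between −3.59 and −3.11. With total-count scaling 3 members were lower, and 21 pathway genes were higher and 7 lower. On that scale Dgat1 (0.0915) changed sign, and with the macrophage score as a covariate, chosen after seeing the data, Rdh10 did (−0.0160). Without KO 5, KO 6, KO 8 and WT 8, 1 member was higher (Cyp26b1). Of the 1 correlation with a marker score past adjustment, 0 passed without the 2 farthest libraries, but the 6 left are too few for a single correlation among 76 to pass, so this says nothing about stability. With the longest transcript as length, also chosen after seeing the data, the ALDH1A sums were 40.1 in wild type and 28.4 in the knockout. The same replicate number does not pair libraries: correlations of same-numbered libraries ran from −0.40 to 0.39, and in 1 of 8 pairs both libraries correlated best with their own number. With the replicate block, 7 members passed (Stra6 at 0.67 did not) and 29 pathway genes passed. The causes were not tested. Depth limits Aldh1a2, Rbp4, Stra6 and, in the knockout, Cyp26c1 and Crabp1.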

Other observations

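Some pathway genes that did not pass the filter on low counts still separated the genotypes, and were chosen after their values were seen. Stra6l, a relative of the retinol receptor Stra6, was 0.108 ± 0.0778 CPM in wild type, at most 2 counts in any library, and 1.20 ± 0.644 CPM in the knockout (SD, n = 8 each), 6 or more counts in every library. Rarres1 was 0.184 ± 0.0896 CPM in wild type and 0.685 ± 0.360 CPM in the knockout (SD, n = 8 each), without overlap. The wild type levels are at or near the floor of 3 counts, so no fold is given, and these are values with no test.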
